A study of Drosophila melanogaster with 3 samples.

Results

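The nuclear genes for the tRNAs of phenylalanine, tyrosine, tryptophan and histidine make up 31 of the 290 nuclear tRNA genes of *Drosophila melanogaster*. They were taken by name from the Ensembl annotation of the fly genome, without pseudogenes and without the mitochondrial tRNA genes. There are 8 genes for phenylalanine (anticodon GAA), 10 for tyrosine (GTA), 8 for tryptophan (CCA) and 5 for histidine (GTG). Bdp1 was mapped by ChIP-seq, in which DNA bound by a protein is precipitated and sequenced, in whole embryos of 0 to 24 h, males and females together, in 3 biological replicates that form a single group. All embryos were of the strain CG9305-GFP, a stable transgenic line whose Bdp1 (CG9305) is fused at its C-terminus to green fluorescent protein, and an antibody to that tag drew down the chromatin. The values are therefore those of the tagged protein, averaged over all cells of embryos of mixed age, and there is no second genotype or treatment.

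RNA polymerase III (Pol III) makes tRNAs from promoters that lie inside the gene. The factor TFIIIC recognises an A box and a B box there and places TFIIIB, of which Bdp1 is a subunit, on the DNA just upstream of the gene, where TFIIIB recruits the polymerase. The tRNAs of these 4 families carry the amino acids with aromatic side chains. The tyrosine genes carry an intron next to the anticodon that is spliced out of the precursor, and tRNA-His is known for an extra guanosine at its 5' end.

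Within each family the mature tRNA sequence was shared by all or most genes. The 31 genes held 6 distinct mature sequences. All 8 phenylalanine genes shared 1 sequence of 73 nt, all 5 histidine genes shared 1 of 72 nt, and 9 of the 10 tyrosine genes shared 1 of 73 nt. The tenth, tRNA:Tyr-GTA-2-1, differed from these by the substitution A59G, counted from the first base of the mature RNA. Tryptophan had 2 sequences, one in the 6 genes named tRNA:Trp-CCA-2 and one in the 2 genes named tRNA:Trp-CCA-1.

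The tyrosine genes differ mainly in their introns, so 3 of them are shown with the 50 bases before the 5' end, from the 5' to the 3' side of the gene's strand, with the exons in capitals and the flank and the intron in lower case. They lie on dm6 at chr3R:8669081-8669224 (minus strand, 21 bp intron), chr2L:2459924-2460094 (minus strand, 48 bp intron) and chr2L:7711426-7711661 (plus strand, 113 bp intron). The sequence was read from the NCBI copy of the same assembly.
tRNA:Tyr-GTA-1-8: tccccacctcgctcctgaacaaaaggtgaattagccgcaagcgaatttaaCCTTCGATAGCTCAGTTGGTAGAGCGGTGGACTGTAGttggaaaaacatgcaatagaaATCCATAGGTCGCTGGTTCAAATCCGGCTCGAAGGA
tRNA:Tyr-GTA-1-2: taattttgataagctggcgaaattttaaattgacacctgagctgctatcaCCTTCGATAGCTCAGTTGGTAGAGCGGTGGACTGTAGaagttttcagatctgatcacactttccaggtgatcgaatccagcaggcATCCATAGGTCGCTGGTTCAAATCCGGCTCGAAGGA
tRNA:Tyr-GTA-1-9: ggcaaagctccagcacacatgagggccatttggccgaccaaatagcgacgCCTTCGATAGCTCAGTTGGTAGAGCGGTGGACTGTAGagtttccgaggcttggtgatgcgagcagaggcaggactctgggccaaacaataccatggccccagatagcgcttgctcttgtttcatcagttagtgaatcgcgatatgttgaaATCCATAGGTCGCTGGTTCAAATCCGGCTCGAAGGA

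The phenylalanine genes have 1 mature sequence and no intron, so their sequences differ only outside the gene. Whether the flank sets the signal was not tested. The 60 bases just upstream of the 5' end are given for 3 phenylalanine genes and for the tryptophan gene on 2L. The phenylalanine genes had no peak, a weak peak and a stronger peak of their own, though not the strongest of the family. All are on dm6 and on the gene's strand, with each TATA in capitals. The TATA of tRNA:Phe-GAA-1-2 lies outside the 50 bp that were searched for these letters. The positions are chrX:6516914-6516973 (plus), chrX:6744544-6744603 (minus), chr2L:8570828-8570887 (plus) and chr2L:4419049-4419108 (minus).
tRNA:Phe-GAA-1-1: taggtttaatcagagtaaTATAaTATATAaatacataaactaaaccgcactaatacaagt
tRNA:Phe-GAA-1-2: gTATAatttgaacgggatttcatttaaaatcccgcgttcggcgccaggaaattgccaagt
tRNA:Phe-GAA-1-3: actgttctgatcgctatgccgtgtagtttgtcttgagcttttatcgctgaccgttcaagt
tRNA:Trp-CCA-2-1: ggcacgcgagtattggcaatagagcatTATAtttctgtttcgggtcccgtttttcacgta

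Of the 31 genes, 30 (96.8%, 95% exact Clopper-Pearson interval 83.3 to 99.9%, counting error over genes only) had a peak of the authors' optimal set within 100 bp on either side of the 5' end. The same rule was met by 92.8% of all nuclear tRNA genes and by 13.7% of protein-coding genes, so the aromatic share is near that of tRNA genes at large. The optimal set, 3206 peaks that the authors derived from the 3 replicates, is a list without read totals, and the depth behind each peak is unknown. The exception was tRNA:Phe-GAA-1-1 (FBgn0052748; X, 6516974 to 6517046), in an intron of CG42340 on the opposite strand. It had no peak in the optimal set and none in the relaxed list of any replicate, each of which holds 30000 peaks and background regions. Its A box and B box letters were those of its 7 sister genes. Of the words of 32 bases within 200 bp of its 5' end 86.8% occur once in the genome, against a median of 87.6% over the 31 genes.

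To set replicates side by side, the peak signal that the authors deposited was divided, within each replicate, by its median over the optimal peaks. On this scale of relative signal the gene's value is that of the strongest relaxed peak touching the 200 bp around the 5' end. Values in all 3 replicates were available for 28 genes. Their means ran from 0.616 to 43.7, a 70.8-fold range, while the coefficient of variation between replicates had a median of 19.2% and a range of 4.86 to 43.3%. The spread between genes was therefore far larger than that between replicates. Of the 28 genes, 13 had a mean of at least 10 and 3 a mean below 1, and some of these genes share a peak. Among the 100 strongest optimal peaks there were 10 at aromatic genes, and among the 20 strongest there were 3. Aromatic genes had 27 of the 231 distinct optimal peaks at nuclear tRNA genes. The same counts for other tRNA genes are not given here, so no excess is read from these.

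**Figure D1:**
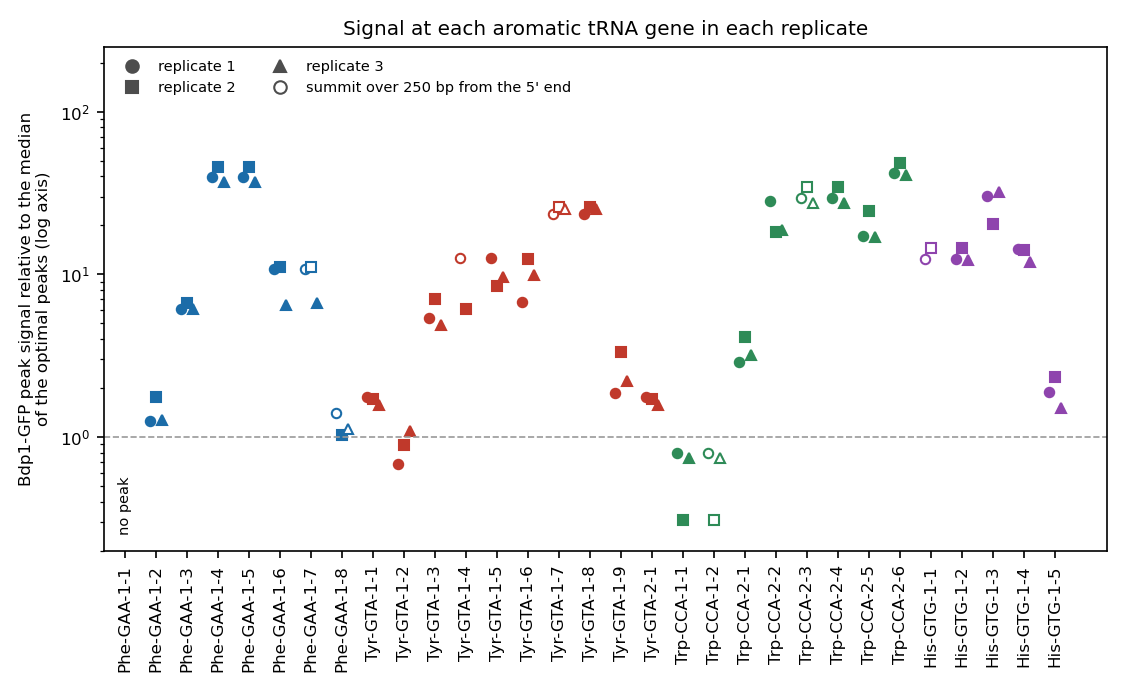
Relative peak signal (log axis; the dashed line at 1 is the median of the optimal peaks) at each of the 31 aromatic tRNA genes, with a symbol for each of the 3 replicates. Open symbols mark a peak whose summit lies more than 250 bp from the 5' end, as at tRNA:Trp-CCA-2-3 and tRNA:His-GTG-1-1, and tRNA:Phe-GAA-1-1 has no value.

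Many of these genes lie beside another tRNA gene and share its peak. At 18 of the 30 occupied genes the strongest optimal peak also came within 100 bp of the 5' end of another tRNA gene. The signal of such a peak cannot be divided among the genes. The sonicated fragments were 200 to 800 bp long, and the 22 genes with a Pol III neighbour within 1000 bp lay 98 to 690 bp from it. A tRNA pseudogene counted as a Pol III neighbour here and below. For genes in clusters, the peak whose summit was nearest the 5' end, within 250 bp, is therefore given as well.

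The phenylalanine genes, identical in their mature sequence, covered nearly the whole range. The divergent pair tRNA:Phe-GAA-1-4 and tRNA:Phe-GAA-1-5 (2R, 17604535 to 17604607 and 17604771 to 17604843) lay 164 bp apart under a single peak of optimal rank 14. Its relative signal was 39.9, 45.6 and 36.8 in replicates 1, 2 and 3, or 40.7 ± 4.48 (SD, n = 3). That summit stood between the genes, 75 bp upstream of the first and 89 bp upstream of the second in the optimal set, and the peak was not resolved into 1 for each gene.

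A convergent pair on 3R, tRNA:Phe-GAA-1-6 and tRNA:Phe-GAA-1-7 (13797953 to 13798025 and 13798198 to 13798270), had an intermediate signal. The strongest peak at tRNA:Phe-GAA-1-6 had values of 10.8, 11.2 and 6.43. At tRNA:Phe-GAA-1-7 the nearest summit gave 9.77, 7.20 and 6.64. The values of these neighbours overlapped only through replicate 3. Over all 3 replicates neither gene stood above the other beyond the spread between replicates.

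The other phenylalanine genes with a peak were lower. tRNA:Phe-GAA-1-3 (2L, 8570888 to 8570960), in an intron of Sema1a, had 6.15, 6.67 and 6.13, or 6.32 ± 0.307. tRNA:Phe-GAA-1-2 (X, 6744471 to 6744543), which is intergenic, had 1.25, 1.76 and 1.27, or 1.43 ± 0.289. These replicate values do not overlap, although the mature sequences and the box letters of the genes are the same. tRNA:Phe-GAA-1-8 (3R, 16321403 to 16321475), in an intron of Sulf1, had 1.14, 1.02 and 0.923 at the nearest summit. In replicates 1 and 3 the strongest peak in its window was that of the neighbouring tRNA:Val-AAC-1-1, with its summit 294 and 253 bp downstream of the phenylalanine gene's 5' end.

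The tryptophan genes held the strongest aromatic peak and the weakest. tRNA:Trp-CCA-2-6 (2R, 21182678 to 21182749) had a peak of optimal rank 10, shared with tRNA:Gly-GCC-1-13, with values of 41.8, 48.5 and 40.6, or 43.7 ± 4.26. The optimal summit lay 61 bp upstream of this tryptophan gene and 46 bp upstream of the glycine gene. Next came tRNA:Trp-CCA-2-3 and tRNA:Trp-CCA-2-4 (2R, 21161063 to 21161134 and 21161526 to 21161597), which share 1 peak with tRNA:Gly-GCC-1-12, at 29.6, 34.5 and 27.5. The optimal summit of this peak lay 57 bp upstream of tRNA:Trp-CCA-2-4 and 43 bp upstream of the glycine gene, but 335 bp upstream of tRNA:Trp-CCA-2-3. No replicate had a summit within 250 bp of tRNA:Trp-CCA-2-3.

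tRNA:Trp-CCA-2-2 (2R, 18639557 to 18639628), beside tRNA:Gly-GCC-1-9, had 28.1, 18.2 and 18.7. tRNA:Trp-CCA-2-5 (2R, 21181284 to 21181355), in an intron of Pu and 1323 bp from the nearest Pol III gene, had 17.1, 24.7 and 17.1 from a peak of its own. Both genes lay below tRNA:Trp-CCA-2-6 in every replicate, and their own values overlapped.

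The other 3 tryptophan genes were weaker. tRNA:Trp-CCA-2-1 (2L, 4418977 to 4419048), in an intron of CG15431, had 2.87, 4.11 and 3.21, or 3.40 ± 0.639, with the same mature sequence as the genes above. tRNA:Trp-CCA-1-1 and tRNA:Trp-CCA-1-2 (2R, 20657891 to 20657962 and 20658104 to 20658175), in an intron of Lrt, carry the other tryptophan sequence and shared 1 peak of optimal rank 2786. It had 0.796, 0.310 and 0.743, or 0.616 ± 0.267. Its summit was 13 bp inside tRNA:Trp-CCA-1-1 and 271 bp downstream of the 5' end of tRNA:Trp-CCA-1-2, which had no summit of its own within 250 bp in any replicate. Replicate 2 was the low one at this pair, with a rank of 14419 among its relaxed peaks against 2322 and 2572 in replicates 1 and 3.

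Histidine genes all lie on 2R, 4 of them in 1 cluster. tRNA:His-GTG-1-3 (12334995 to 12335066) was highest with 30.3, 20.4 and 31.9, or 27.5 ± 6.22. tRNA:His-GTG-1-4 (12336418 to 12336489) had 14.3, 14.1 and 11.9, and tRNA:His-GTG-1-2 (12334234 to 12334305) had 12.4, 14.5 and 12.3. The last 2 overlapped each other and lay below tRNA:His-GTG-1-3 in all 3 replicates.

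At tRNA:His-GTG-1-3 the summit was far from the gene, 128, 125 and 189 bp upstream, while at the other genes of this cluster with a near summit it was 23 to 27 bp upstream. tRNA:His-GTG-1-1 (12333926 to 12333997) was reached only by the peak of tRNA:His-GTG-1-2, whose summit lay 332 bp upstream of it, and by no relaxed peak in replicate 3. tRNA:His-GTG-1-5 (19506339 to 19506410) stands alone, 58463 bp from the nearest Pol III gene, and had 1.90, 2.34 and 1.50, or 1.91 ± 0.423. It lay below the 3 genes with a near summit in the cluster in every replicate, with the same mature sequence.

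All 10 tyrosine genes had an optimal peak. A group on 3R inside introns of p and CG8036 was the strongest. tRNA:Tyr-GTA-1-8 (8669081 to 8669174) had 23.4, 25.9 and 25.3, or 24.9 ± 1.31, with the summit 37 to 41 bp upstream. tRNA:Tyr-GTA-1-7 (8668612 to 8668705) lay under the same broad peak, 1264 bp wide, and at its own nearest summit it had 5.45 in replicate 2, 5.81 in replicate 3 and no value in replicate 1. tRNA:Tyr-GTA-1-6 (8668116 to 8668208) had 6.72, 12.5 and 9.92 and was below tRNA:Tyr-GTA-1-8 in each replicate.

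The second 3R group, intergenic, held tRNA:Tyr-GTA-1-5 (8642701 to 8642793) with 12.7, 8.47 and 9.67. tRNA:Tyr-GTA-1-4 (8642333 to 8642425), 276 bp away, had a near summit only in replicate 2, at 6.11. In replicate 1 it was reached only by its neighbour's peak and in replicate 3 by none, so no mean is given.

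On 2L, tRNA:Tyr-GTA-1-3 (2462593 to 2462686) had 5.39, 7.04 and 4.87, while tRNA:Tyr-GTA-1-2 (2459924 to 2460044), 2549 bp away, had 0.682, 0.888 and 1.08, or 0.885 ± 0.200. The values of this pair do not overlap. tRNA:Tyr-GTA-1-9 (2L, 7711476 to 7711661), which overlaps an exon of Ntl on the same strand and has the longest intron, had 1.86, 3.33 and 2.20, or 2.46 ± 0.768. The divergent pair tRNA:Tyr-GTA-1-1 and tRNA:Tyr-GTA-2-1 (X, 21304441 to 21304535 and 21304713 to 21304820), inside Abca3, shared 1 narrow peak at 1.75, 1.70 and 1.58. Its optimal summit was 28 bp upstream of tRNA:Tyr-GTA-1-1 and 150 bp upstream of tRNA:Tyr-GTA-2-1.

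By family, the median relative signal over genes was 20.6 ± 2.47 for tryptophan (SD, n = 3 replicates), 12.9 ± 1.38 for histidine, 7.88 ± 1.41 for phenylalanine and 5.39 ± 1.62 for tyrosine, with a gene lacking a relaxed peak taken as 0. These medians stood at positions 2, 4, 13 and 18 among the 22 nuclear tRNA families. The tryptophan median includes tRNA:Trp-CCA-2-2, tRNA:Trp-CCA-2-3, tRNA:Trp-CCA-2-4 and tRNA:Trp-CCA-2-6, whose peaks are shared with glycine genes. The order of tryptophan and histidine depended on how peaks were given to genes: by the nearest summit the medians were 10.4 ± 0.637 for tryptophan, 12.8 ± 1.14 for histidine, 7.06 ± 0.848 for phenylalanine and 3.71 ± 1.99 for tyrosine. Phenylalanine was above tyrosine in 3 of 3 replicates on either rule, but by the strongest peak the ranges of their replicate medians overlapped.

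As one class, with each gene given its strongest peak, the aromatic genes did not differ from the rest by more than the spread between replicates. On the log2 scale their median relative signal minus that of the 259 other nuclear tRNA genes was 0.27, 0.42 and -0.09 in replicates 1, 2 and 3, a mean of 0.20 ± 0.26 that is smaller than its own spread. By the nearest summit the difference was 0.03 ± 0.15. With each distinct optimal peak counted once it was 0.33 ± 0.26, larger than its spread. The direction turned when only genes with no other Pol III gene or tRNA pseudogene within 1000 bp were compared, 9 aromatic and 90 others, to -1.17, -0.45 and -0.77 (mean -0.80 ± 0.36). No test was made, since genes are not replicates and the families were chosen with results of these data known.

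Aromatic genes with a Pol III neighbour had a higher median than isolated ones. The 22 aromatic genes with another Pol III gene or a tRNA pseudogene within 1000 bp had a median of 12.6 ± 1.69, and the 9 isolated genes 2.48 ± 0.753. Among the other tRNA genes the medians were 11.6 ± 0.808 for the 169 with a neighbour and 4.19 ± 0.394 for the 90 without. The nearest summit gave 9.41 ± 1.12 and 2.48 ± 0.753 for the aromatic genes, and 7.77 ± 0.812 and 4.03 ± 0.465 for the others, so the gap was smaller but in the same direction. Of the isolated aromatic genes tRNA:Trp-CCA-2-5 was the only one with a mean above 10. The gene tRNA:His-GTG-1-4, with a mean of 13.4, has no other tRNA gene within 1000 bp. It was classed with the neighboured genes because of a tRNA pseudogene 244 bp away. How far peaks merged over neighbouring genes enter into these values was not tested beyond the nearest-summit rule.

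**Figure D2:**
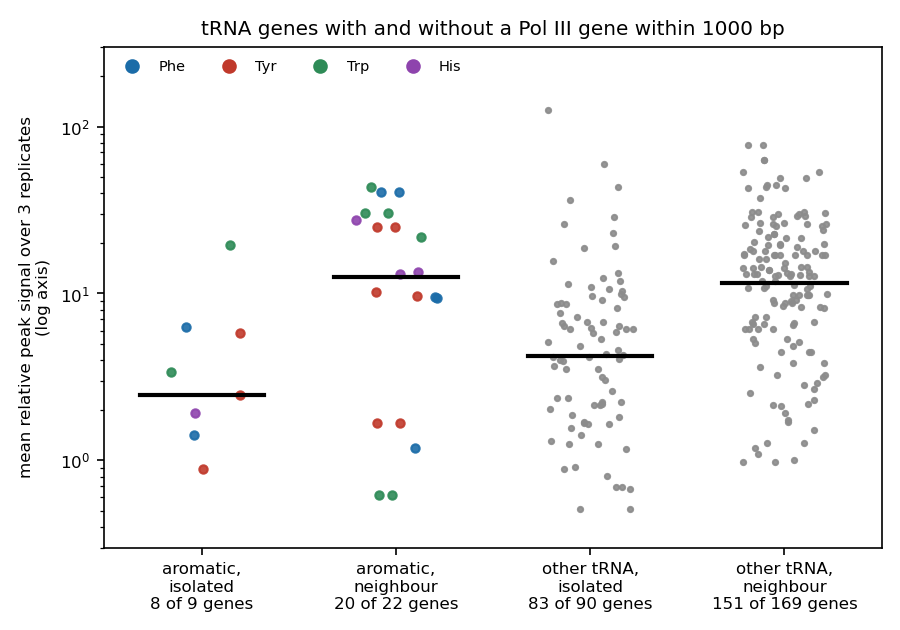
Mean over 3 replicates of the relative peak signal (log axis) of single tRNA genes with a value in all replicates. Genes are split into those without and with another Pol III gene or a tRNA pseudogene within 1000 bp. Aromatic genes are coloured by family, other nuclear tRNA genes are grey, and bars are the mean over replicates of the median over all genes of the class. The bars stand at 2.48 and 12.6 for aromatic genes and at 4.19 and 11.6 for the others.

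The aromatic genes on X were low. The tyrosine pair, tRNA:Phe-GAA-1-2 and the peakless tRNA:Phe-GAA-1-1 gave a median of 1.54 ± 0.142, against 11.5 ± 1.60 for the 27 aromatic genes on autosomes, a log2 difference of -2.89 ± 0.14 that was negative in 3 of 3 replicates. The other tRNA genes went the same way, with 2.06 ± 0.589 for 20 genes on X and 8.84 ± 0.788 for 239 on autosomes (log2 difference -2.14 ± 0.33). This split was looked at after the values were seen, and the 3 aromatic genes on X that have a peak lie under 2 peaks. By the nearest summit the autosomal median was 6.78 for the aromatic genes and 6.60 for the others, with 1.54 and 1.82 on X. Aromatic genes inside another annotated gene, 12 in introns and 1 over an exon, also had a lower median (2.46 ± 0.768) than the 18 intergenic ones (12.6 ± 1.76). These groupings overlap, since 3 of the 4 genes on X are intronic.

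The tyrosine introns set the A box and the B box farther apart, while the nearest summit at these genes lay between 172 bp upstream of the 5' end and 7 bp inside the gene. All 10 tyrosine genes had a first exon of 37 bp and a second of 36 bp, with an intron of 20 to 22 bp in 7 genes, 35 bp in tRNA:Tyr-GTA-2-1, 48 bp in tRNA:Tyr-GTA-1-2 and 113 bp in tRNA:Tyr-GTA-1-9. The distance between the start of the A box letters (TNGCNNAG) and that of the B box letters (GTTCNANNC) was 65 to 158 bp, where the intronless phenylalanine genes had 45 bp. At tRNA:Tyr-GTA-1-9, where the boxes are farthest apart, the summits were 25, 33 and 23 bp upstream of the 5' end. At tRNA:Tyr-GTA-1-3, with a 21 bp intron, they were 54, 30 and 46 bp upstream.

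The 3 genes with an intron over 30 bp had mean relative signals of 0.885 to 2.46. Genes with introns of 20 to 22 bp ranged more widely, from 1.68 at tRNA:Tyr-GTA-1-1 to 24.9 at tRNA:Tyr-GTA-1-8. Intron length and surroundings cannot be told apart here: the genes with long introns are outside the 3R clusters, and tRNA:Tyr-GTA-2-1 shares its peak with tRNA:Tyr-GTA-1-1. The 10 intron-containing genes are the whole tyrosine family, so intron and family cannot be told apart in the next comparison. The median of these 10 genes minus that of the 21 intronless aromatic genes was taken on the log2 scale. This difference was -1.03, -1.10 and -0.91 in replicates 1, 2 and 3 (mean -1.01 ± 0.10). Among isolated genes, 3 with an intron and 6 without, it was -0.14 ± 0.21, which is within its spread. The nearest summit gave -1.21 ± 1.10 and each optimal peak counted once gave -0.48 ± 0.58, so the size of this difference depended on how shared peaks were handled. The 6 intron-containing tRNA genes outside the aromatic families had medians of 7.94 ± 1.96 (4 Leu-CAA genes) and 14.7 ± 2.50 (2 Ile-TAT genes), and all had an optimal peak.

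**Figure D3:**
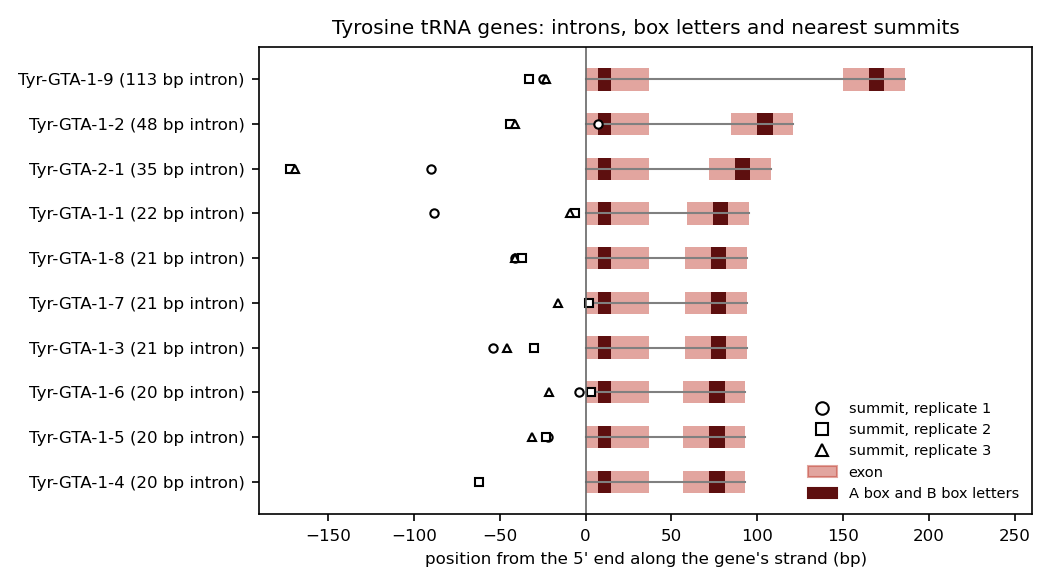
The 10 tyrosine tRNA genes drawn to scale from the 5' end (bp), ordered by intron length, with exons, the A box and B box letters, and the nearest summit within 250 bp in each replicate. The B box moves downstream with the intron, while the summits of tRNA:Tyr-GTA-1-9 stay 23 to 33 bp upstream of the 5' end.

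The summits lay just upstream of the genes. Over the 8 isolated aromatic genes with a peak, the median summit was 31, 34.5 and 36 bp before the first base in replicates 1, 2 and 3, a mean of -33.8 ± 2.57 bp (upstream negative). For the other isolated tRNA genes it was -28.3 ± 1.53 bp. In each replicate 7 of the 8 summits were upstream of the first base. The exceptions were near the start: tRNA:Tyr-GTA-1-2 in replicate 1, at 7 bp inside the gene, and tRNA:Phe-GAA-1-2 in replicates 2 and 3, at 18 bp inside and at the first base.

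**Figure D4:**
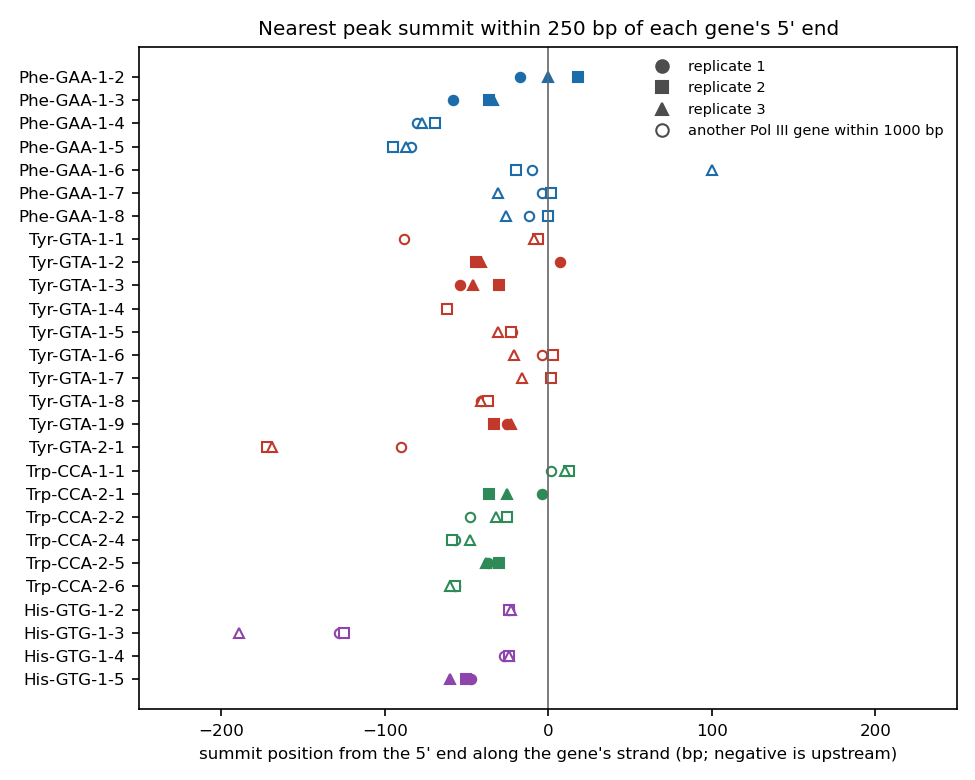
Position of the nearest peak summit within 250 bp of the 5' end (bp along the gene's strand, upstream negative) for the aromatic genes that have one, with a symbol for each replicate. Filled symbols are isolated genes, which lie over 1000 bp from any other Pol III gene or tRNA pseudogene. Most summits sit within 100 bp upstream of the 5' end, and those of tRNA:His-GTG-1-3 at 125 to 189 bp and tRNA:Tyr-GTA-2-1 at 90 to 172 bp lie farthest upstream.

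Promoter letters were searched on the gene's own strand within the gene, and TATA in the 50 bp upstream. B box letters were found in all 31 genes and in 93.4% of all nuclear tRNA genes. A box letters were found in all phenylalanine and tyrosine genes and in none of the tryptophan and histidine genes, which is 58.1% of the 31 against 49.7% of all. A run of at least 4 T, where Pol III stops, began within 40 bp after the gene in 30 of the 31 genes (96.8%, against 99.0% of all), the exception being tRNA:His-GTG-1-1. TATA occurred upstream of 4 genes (12.9%, against 22.1% of all): tRNA:Trp-CCA-2-1, tRNA:Trp-CCA-2-2, tRNA:Tyr-GTA-1-3 and tRNA:Phe-GAA-1-1. In the tryptophan genes it began 33 and 32 bp upstream, and in tRNA:Phe-GAA-1-1, the gene with no peak, it began 42, 37 and 35 bp upstream. A match of these fixed letters, or the lack of one, is a description of the sequence. It does not show whether a working box is present or a site is bound.

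Protein-coding genes that serve these tRNAs had weak peaks or none at their 5' ends. Of 8 synthetase genes for the aromatic amino acids and histidine, cytoplasmic and mitochondrial, 2 had an optimal peak (25%, where 13.7% of protein-coding genes had one). These were beta-PheRS, with 0.656, 0.658 and 0.802, and alpha-PheRS, with 0.799 in replicate 1, 0.712 in replicate 3 and no peak in replicate 2; they encode the subunits of the cytoplasmic phenylalanyl-tRNA synthetase. TyrRS, TrpRS, HisRS and the mitochondrial PheRS-m, TyrRS-m and TrpRS-m had none. Of 7 genes for tRNA splicing, among them the ligase RtcB, 0 had one (0%).

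Among 5 genes for tRNA end processing and queuosine, 3 had a peak (60%, where 13.7% of protein-coding genes had one). RNaseZ, the 3' end nuclease, had 0.844, 0.403 and 0.712. La, which binds the 3' end of new Pol III transcripts, had 0.785, 0.517 and 0.952. THG, whose yeast counterpart adds the guanosine to tRNA-His, had 1.33 in replicate 1, 0.942 in replicate 3 and no peak in replicate 2. All of these lie below the values of most aromatic tRNA genes.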

How the data were processed

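The authors deposited peak lists of Bdp1-GFP ChIP-seq on 2 builds, of which the 5 on dm6 were read: 1 relaxed list per replicate, 1 for the pooled replicates and the optimal set thresholded by irreproducible discovery rate. Per the text deposited with the files, a control alignment served in calling the relaxed lists. The aligner, peak caller and thresholds were not given in the sources used here, though such settings affect peak width and summit. The list of the pooled replicates gave no value printed here. The peak signal (column 7) is as the authors deposited it and its scale between lists is not stated. Per-sample columns left without a sample numbered 0. Sequencing depth is unknown.

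Genes came from Ensembl release 115 (BDGP6.54) and sequence from NCBI's copy of the same assembly. A gene counted as occupied where the 100 bp on either side of its 5' end shared 1 bp or more with an optimal peak. Signals were divided by the replicate's median at optimal peaks (43.5, 56.3 and 50.04 in replicates 1, 2 and 3). Coordinates are 1-based.

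The genes named were set by a rule: the highest and lowest of each family, those without a peak, those with an intron, and those that share a peak; in the event every member is named. The members and lists were chosen with earlier results of these data known, and no test was made over them. Of the related genes listed, QTRT2 was not analysed here, and 1 other gene of the splicing list is not reported here. The overlap rules were tested on artificial peaks at known positions. The alternatives were other peak sets, windows, ways to assign peaks, scalings and left-out replicates. The work used Python 3.11.15, NumPy 2.4.6 and SciPy 1.17.1.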

Additional observations from a re-analysis of the deposited data

How the results depend on the processing

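The count of occupied aromatic genes, 30 of 31, stayed within 1.5 times under every alternative run. It was 30 with a window of 500 bp (96.8%, against 95.5% of all nuclear tRNA genes) and 27 with the 1603 stronger optimal peaks (87.1% against 88.3%). With windows of 50 bp it was 28 (90.3% against 92.1%), and 26 when a summit had to lie within 250 bp (83.9% against 85.2%). The aromatic share was thus above or below that of all nuclear tRNA genes, depending on the setting. tRNA:Phe-GAA-1-1 had no peak under any of these settings. The optimal set could not be remade without a replicate. In its place each replicate gave its own 3206 relaxed peaks of highest signal. Then 30 genes were reached in at least 2 of the 3 replicates (96.8%, against 91.7% of all nuclear tRNA genes). In both of the replicates that remained when 1 was left out, 26 to 28 were reached (83.9 to 90.3%, against 87.6 to 89.3%). By that rule the tRNA:Trp-CCA-1 pair failed in replicate 2, and tRNA:Tyr-GTA-1-4 and tRNA:His-GTG-1-1 in replicate 3. The median relative signal, 9.45, was 5.96 by the nearest summit and 1.16 when divided by the median of all nuclear tRNA genes, which changes its unit. The nearest summit also gave 10.4 for tryptophan and 3.71 for tyrosine. The difference between aromatic and other tRNA genes reversed to -0.80 among isolated genes and was 0.33 (SD 0.26) with each optimal peak counted once. The difference between intron-containing and intronless genes was -0.14 among isolated genes, -1.21 (SD 1.10) by the nearest summit and -0.48 (SD 0.58) with each optimal peak counted once. The median summit was at -37.2 bp over all aromatic genes. The family values by nearest summit and the intron comparison with each peak once were chosen after seeing the data. The cause of these shifts was not tested. No paired analysis was possible because the samples form a single group. Neighbouring genes under 1 peak, and unknown depth, limit what a single gene's value can show.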

Other observations

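The 3 aromatic genes with the most A and T in the 50 bp upstream of the 5' end were also the 3 with the lowest signal. These were tRNA:Trp-CCA-1-2 (86% A or T), tRNA:Trp-CCA-1-1 (76%) and tRNA:Phe-GAA-1-1 (76%). The tryptophan pair lay under 1 shared peak with a mean relative signal of 0.616, and the phenylalanine gene had no peak. No summit lay within 250 bp of tRNA:Trp-CCA-1-2 in any replicate, so the pair is not 2 separate observations. Of the 28 aromatic genes with less than 70% A or T, all had an optimal peak, and their median was 10.8 ± 2.30 (SD, n = 3 replicates), or 6.61 ± 0.447 by the nearest summit. The 259 other nuclear tRNA genes showed the same order. Their 33 genes with at least 70% had a median of 2.37 ± 0.613 and an optimal peak at 78.8%, against 8.71 ± 0.841 and 94.2% for the 226 below 70%. By the nearest summit these medians were 1.32 ± 0.348 and 6.68 ± 0.475. The share of words of 32 bases found once in the genome had medians of 87.6 and 87.3% in these classes, and of 88.7 and 87.6% in the aromatic ones. To rank all genes, a replicate without a relaxed peak counted as 0 in the mean signal. Across genes, which are not independent, Spearman's rho between upstream A/T share and mean signal was -0.33 over the 31 aromatic genes and -0.27 over the 259 others, given as a description. Between the share of unique words and mean signal it was -0.49 over the aromatic genes, larger in size than for A/T, and -0.016 over the others. The share and its threshold of 70% were chosen after the values were seen.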
